A study of Mus musculus with 49 samples.

Results

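The genes described here are 10 interferon-induced genes, Ifit1, Ifit2, Ifit3, Isg15, Rsad2, Oasl2, Ifitm1, Ifitm2, Ifitm3 and Ifitm6, followed through normal mouse blood progenitors and the MLL-AF9 leukaemias raised from them. They were taken by name from a table of 38253 genes, and all 10 were found there under 1 Ensembl identifier each. RNA sequencing gave FPKM values (fragments scaled by transcript length and by the size of the library, so that levels of genes can be compared per length) for 49 samples in 10 groups. The 30 normal samples were cells sorted from the bone marrow of untransduced, wild-type female C57BL/6J mice aged 6 to 12 weeks: 5 of long-term haematopoietic stem cells (LT-HSC), 5 of short-term stem cells (ST-HSC), 6 of multipotent progenitors (MPP), 5 of common myeloid progenitors (CMP), 5 of granulocyte-macrophage progenitors (GMP) and 4 of megakaryocyte-erythroid progenitors (MEP). LT-HSC, ST-HSC and MPP were separated within the lineage-negative, Sca-1-positive, c-Kit-positive gate by CD150 and CD34, and CMP and GMP within the Sca-1-negative, c-Kit-positive gate by CD34 and the Fcγ receptor. The 19 leukaemias came from the same strain after ST-HSC (3, STHSC:MA9), MPP (6, MPP:MA9), CMP (4, CMP:MA9) or GMP (6, GMP:MA9) had been transduced in culture with a retrovirus that carried MLL-AF9 and GFP and injected into sublethally irradiated mice. Their labels give the same age of 6 to 12 weeks, and by the methods of the study all mice were female. MLL-AF9 is a fusion oncogene of human acute leukaemia. Leukaemias of LT-HSC or MEP origin and cells transduced without MLL-AF9 were not analysed here. The labels give bone marrow as the tissue of every sample, whereas the methods of the study describe the leukaemic cells as GFP-positive cells sorted from the spleen, and the normal cells were neither cultured nor transplanted. Organ, culture, viral transduction, irradiation of the host and leukaemia therefore cannot be told apart in a comparison of a leukaemia with its normal cell, nor can fewer cells of a type be told from less RNA per cell in bulk samples like these.

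Type I interferons bind a receptor of the subunits IFNAR1 and IFNAR2, and the kinases JAK1 and TYK2 at that receptor phosphorylate transcription factors such as STAT2. STAT2 joins IRF9 in a complex that binds the interferon-stimulated response element in the promoters of interferon-stimulated genes. The IFIT proteins (Ifit1, Ifit2, Ifit3) are cytoplasmic and bind viral RNA or translation factors, ISG15 is a ubiquitin-like protein that is joined to other proteins, viperin (Rsad2) is a radical-SAM enzyme that makes a chain-terminating nucleotide, and Oasl2 belongs to the oligoadenylate synthetase family. The IFITM proteins sit in cell membranes and hinder the entry of enveloped viruses. Stem cells are known to hold part of this programme at a constant level without infection.

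On the mouse assembly NCBIM37 (mm9), Ifit2 (chromosome 19, 34625184 to 34650909), Ifit3 (34658021 to 34663221) and Ifit1 (34715361 to 34724499) lie in this order on the plus strand. Ifitm2 (chromosome 7, 148140736 to 148141882, minus strand), Ifitm1 (148153120 to 148155724, plus strand), Ifitm3 (148195485 to 148196669, minus strand) and Ifitm6 (148201711 to 148202791, minus strand) form a second cluster. Isg15 (chromosome 4, 155573533 to 155574927, minus strand), Rsad2 (chromosome 12, 27127618 to 27141317, minus strand) and Oasl2 (chromosome 5, 115346943 to 115362243, plus strand) stand alone. No exon of the 10 genes overlapped an exon of another annotated gene. Sequence is shared with relatives, however: 62.8% of the 31-base windows of Ifit3 also occurred in transcripts of other genes, against 36.2% for Ifitm2, 14.6% for Ifitm3, 11.8% for Ifitm1 and 10.9% for Ifit1, so that the split of reads between copies, above all for Ifit3 and Ifitm2, is uncertain.

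The promoter stretches that carry the letters of the interferon-stimulated response element are shown because this element is the one through which interferon is known to act on such genes. The letters TTTC, any 2 bases and TTTC again were searched on both strands in RefSeq promoters of 300 bases (250 before and 50 after the start), placed on NCBIM37. Matches whose stretches with 20 flanking bases overlapped were joined. Of 32851 such promoters 1131 (3.44%) held a match, and by gene 1079 of 27025 (3.99%). All 10 genes had a promoter there, and 6 held a match: Isg15, Ifitm2, Rsad2, Ifit3 and Ifit1 before the start, and Ifitm3 only after the start. Each line gives the strand of the gene from 5′ to 3′ with 20 flanking bases on each side, and capitals mark the matched letters.
Isg15, chr4:155574964-155575025, minus strand: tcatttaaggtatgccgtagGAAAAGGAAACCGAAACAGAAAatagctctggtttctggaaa
Ifitm2, chr7:148141877-148141926, minus strand: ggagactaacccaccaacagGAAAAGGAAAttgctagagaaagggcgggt
Rsad2, chr12:27141408-27141457, minus strand: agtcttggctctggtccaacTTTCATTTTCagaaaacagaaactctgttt
Ifit3, chr19:34657843-34657926, plus strand: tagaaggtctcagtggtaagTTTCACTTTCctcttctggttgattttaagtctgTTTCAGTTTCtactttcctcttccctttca
Ifit1, chr19:34715255-34715323, plus strand: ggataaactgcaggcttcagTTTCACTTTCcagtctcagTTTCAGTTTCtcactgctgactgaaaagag
The Isg15 stretch holds 3 overlapping matches, those of Ifit3 and Ifit1 hold 2 each, and those of Ifitm2 and Rsad2 hold 1. These letters were not found in the windows of Ifit2, Oasl2, Ifitm1 and Ifitm6. A match is a description of the letters and not a bound site.

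The deposited FPKM of a library summed to 694414 to 955433, and 15282 to 17852 genes had a value above 0. No pair of libraries was identical, and by the study's account every sample came from its own mouse, collected over replicate experiments. The labels do not tie samples to those experiments, so differences between experiments were not tested. The labelled cell types were checked against summed markers: 7 stem cell markers summed to 225 to 816 FPKM in LT-HSC, ST-HSC and MPP and to 1.62 to 81.9 in the leukaemias. In 4 libraries, LT-HSC replicates 4 and 5 and ST-HSC replicates 4 and 5, genes of mature blood cells were high: 10 granulocyte markers summed to 75151, 30288, 42716 and 8815 FPKM, against 22.3 to 1221 in the other 6 stem cell libraries. All 10 markers were above 1 FPKM in each of the 4, and also in ST-HSC replicate 3. That library had the sum of 1221 and was kept when the 4 were left out. The 6 erythroid markers of the 4 libraries summed to 79837, 42225, 43061 and 7015 FPKM, against 99.5 to 6513 in the other 6. The counts and calls of the 10 genes that changed without these 4 libraries are therefore given both ways.

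Among normal cells Ifit1, Ifit3 and Oasl2 were called higher in MPP than in CMP, and Oasl2 also higher in CMP than in GMP or MEP, whereas Ifit2, Isg15 and Rsad2 were called at no step with all libraries. Ifit1, a sensor of foreign RNA caps, measured 4.61, 7.88, 7.75, 12.35 and 10.5 FPKM in LT-HSC and 3.24, 2.70, 2.21, 6.91 and 5.20 in ST-HSC. In MPP it ran from 2.43 to 7.54 with a median of 4.045. The committed progenitors lay lower, at 1.44, 1.02, 1.41, 1.64 and 1.74 FPKM in CMP, 0.46, 0.51, 1.11, 0.69 and 0.44 in GMP and 0.65, 1.68, 0.94 and 1.63 in MEP. No CMP value reached the lowest MPP value. Changes here and below are differences of mean log2(FPKM + 1), a scale that understates changes of low genes, and a gene was called where limma gave an adjusted p below 0.05 (Benjamini-Hochberg over all genes tested) and a change above 1 in size. Ifit1 was higher in MPP than in CMP by 1.12 (SE 0.24, adjusted p = 0.00178), although without MPP replicate 5 the difference was 0.99, just under the fold threshold.

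Oasl2 followed the same order at higher levels. Its FPKM in LT-HSC was 17.6, 60.8, 25.8, 63.2 and 44.5, in ST-HSC 26.1, 37.8, 27.0, 49.7 and 35.7, and in MPP 31.1 to 44.3 with a median of 41.1. It was 10.3, 10.02, 15.2, 14.9 and 11.5 in CMP, 2.84, 2.24, 4.93, 4.41 and 3.77 in GMP and 5.56, 6.09, 3.79 and 4.87 in MEP. The MPP, CMP and GMP ranges did not overlap. Oasl2 was called higher in MPP than in CMP (1.62, SE 0.24, adjusted p = 2.4e-05), higher in CMP than in GMP (1.55, SE 0.25, adjusted p = 1.75e-05) and higher in CMP than in MEP (1.14, adjusted p = 0.00152). These steps share groups, so they are not independent of one another.

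Ifit2, a relative of Ifit1 that also limits viral translation, varied less. It measured 5.96, 7.65, 5.89, 7.11 and 5.98 FPKM in LT-HSC, 8.40, 7.45, 6.52, 6.85 and 7.87 in ST-HSC, and 3.41 to 7.37 in MPP (median 6.14). CMP held 5.20, 6.22, 5.42, 3.97 and 5.07, GMP 4.97, 4.94, 5.21, 5.02 and 3.93, and MEP 3.76, 2.92, 2.91 and 3.35 FPKM. No step of Ifit2 among normal cells was called. Ifit3, another relative of Ifit1, was the lowest of the 10, at 1.37, 0.31, 1.33, 5.93 and 1.77 FPKM in LT-HSC, 0, 0.93, 1.31, 3.30 and 1.58 in ST-HSC, and 1.02 to 2.16 in MPP (median 1.575). It did not exceed 0.60 in CMP, 0.53 in GMP or 0.36 in MEP. It was called higher in MPP than in CMP (1.04, SE 0.31, adjusted p = 0.0211), but lost the call without CMP replicate 2 (0.99) or CMP replicate 5 (adjusted p = 0.0535), and it fell under the filter on low values in some fits that left out 1 library and was tested in 22.

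Isg15 and Rsad2 were highest in the libraries with mature-cell genes. Isg15 measured 18.45, 16.8, 12.8, 105.8 and 51.2 FPKM in LT-HSC, 2.22, 7.73, 7.15, 44.4 and 16.5 in ST-HSC and 6.34 to 13.4 in MPP (median 9.255). It stood at 4.82, 4.24, 3.34, 1.02 and 7.14 in CMP, 2.24, 1.90, 2.59, 1.53 and 3.81 in GMP and 5.48, 4.14, 7.70 and 6.98 in MEP. Rsad2 measured 4.29, 4.49, 4.99, 103.9 and 46.65 in LT-HSC, 4.43, 11.2, 3.81, 39.7 and 13.1 in ST-HSC and 3.55 to 5.46 in MPP (median 4.765). The largest values of both genes in LT-HSC and in ST-HSC belonged to replicates 4 and 5. So did those of Ifit1, Ifit3, Ifitm3 and Ifitm6, while the remaining genes did not show this in both groups. Rsad2 was 3.17, 2.36, 2.39, 2.48 and 1.93 in CMP, 0.33, 0.35, 0.84, 0.98 and 1.24 in GMP and 4.31, 3.76, 1.66 and 4.08 in MEP. Neither Isg15 nor Rsad2 was called at any step with all libraries. Without the 4 libraries Isg15 was called higher in LT-HSC than in ST-HSC (1.46, adjusted p = 0.015) and higher in MPP than in CMP (1.11, adjusted p = 0.00685), and Rsad2 higher in CMP than in GMP (1.01, adjusted p = 0.000593) and lower in GMP than in MEP (-1.33, adjusted p = 3.11e-05).

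The IFITM genes were of a different order of abundance, and together made up 93.5% to 99.8% (median 98.1%) of the summed FPKM of the 10 genes in a library. Ifitm1 measured 241, 329, 188, 177.5 and 275 FPKM in LT-HSC, 148, 129, 187, 299 and 281 in ST-HSC and 259 to 595 in MPP (median 279). It was 139, 140.1, 143, 131 and 117 in CMP, 29.5, 19.9, 66.5, 51.0 and 61.5 in GMP and 35.1, 46.4, 19.7 and 39.5 in MEP. The MPP range lay above that of CMP, and the CMP range above those of GMP and MEP. Ifitm1 was called at each of these steps: MPP above CMP by 1.22 (SE 0.28, adjusted p = 0.00315), CMP above GMP by 1.66 (SE 0.29, adjusted p = 5.2e-05) and CMP above MEP by 1.96 (adjusted p = 1.66e-05). Ifitm3, the family member best known for blocking influenza virus, measured 644, 984, 556, 1486 and 1205 FPKM in LT-HSC, 704, 543, 563, 1192 and 798 in ST-HSC and 604 to 827 in MPP (median 653). It lay at 321 to 410 in CMP, 218 to 313 in GMP and 134 to 203 in MEP, 3 ranges that did not overlap, and was called higher in CMP than in MEP (1.17, adjusted p = 0.00018). Ifitm2 was the flattest of the family. It ran from 560.3 to 968 FPKM in LT-HSC, 615 to 1004 in ST-HSC, 596 to 768 in MPP, 636 to 759 in CMP, 450.3 to 643 in GMP and 441 to 567 in MEP, and no step was called.

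Ifitm6, a member of the family that is expressed in myeloid cells, went the other way. In LT-HSC it measured 0.87, 1.12 and 0.44 FPKM in replicates 1 to 3 and 1798 and 871 in replicates 4 and 5. In ST-HSC the values were 4.54, 1.21, 18.2, 1202 and 241. It was 1.43 to 16.15 in MPP (median 2.715), 6.73, 4.06, 3.43, 3.70 and 5.75 in CMP, 35.1, 14.1, 46.8, 47.5 and 56.7 in GMP and 9.46, 6.58, 1.35 and 52.0 in MEP. GMP lay above CMP without overlap, which was not called with all libraries but was without the 4 stem cell libraries (CMP minus GMP -2.74, adjusted p = 0.00106). The highest MPP value (replicate 6) and the highest MEP value (replicate 4) came from the libraries with granulocyte marker sums of 887 and 3422 FPKM.

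Counted over all 10 genes, limma called 0 between LT-HSC and ST-HSC (2.26% of 12367 genes tested were called in either direction) and 0 between ST-HSC and MPP (3.44%). At an unadjusted p below 0.05 it gave 2 genes in the first (Ifit1 0.95, Isg15 1.44) and 2 in the second (Ifit2 0.37, Ifitm1 -0.66). Of these only Ifit1 also had an adjusted p below 0.05 (0.0148), and it missed the call on the fold threshold. Between MPP and CMP, 4 were higher in MPP (2.83% of all genes), and between CMP and GMP 2 were higher in CMP (7.94%). Between CMP and MEP, 3 were higher in CMP (9.49%), and between GMP and MEP 0 were called (20.5% in either direction), with 3 at an unadjusted p below 0.05, Ifit2, Ifitm3 and Rsad2. Ifit2 (0.46, adjusted p = 0.0144) and Ifitm3 (0.61, adjusted p = 0.0253) missed that call only on the fold threshold. The median difference of the 10 genes was 0.95 from CMP to MPP, beside -0.03 over all genes tested, and from 0.08 to 0.52 for the other 5 steps, beside -0.12 to 0.20. With the 4 stem cell libraries left out, 2 genes were called higher in LT-HSC than in ST-HSC, Ifit1 (1.04, adjusted p = 0.0149) and Isg15 (1.31% of all genes), and Ifitm1 was called lower in ST-HSC than in MPP (-1.03, adjusted p = 0.0178, with 3.29% of all genes). Again without them, 4 genes were called higher in MPP than in CMP (3.14%), 4 differed between CMP and GMP (11.8%) and 3 between GMP and MEP (21.1%), where Isg15 (-1.06, adjusted p = 0.00663), Ifitm6 (1.91, adjusted p = 0.0192) and Rsad2 were called. Some single libraries also decided these counts. Ifit1 was called between LT-HSC and ST-HSC without LT-HSC replicate 1 or ST-HSC replicate 4 or 5, Isg15 without LT-HSC replicate 3 or ST-HSC replicate 4, and Rsad2 between GMP and MEP without LT-HSC replicate 4.

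**Figure D1:**
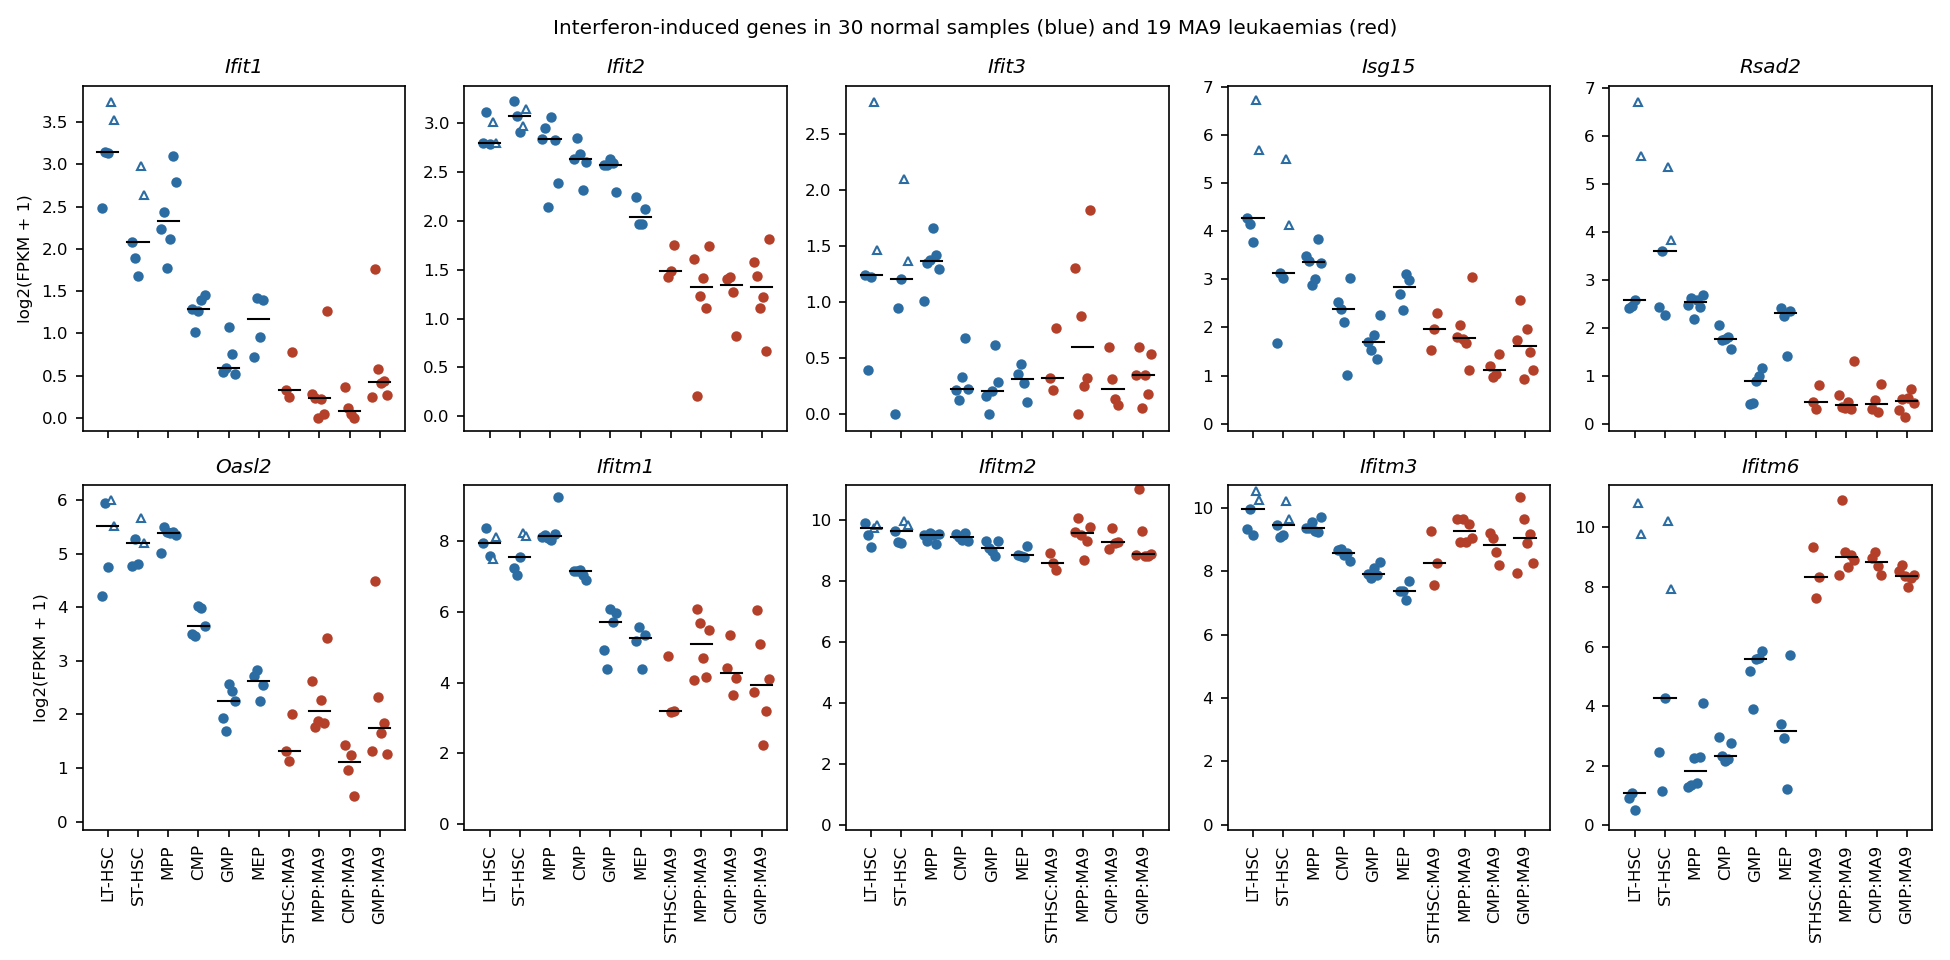
Level of the 10 genes in every sample as log2(FPKM + 1), 1 panel per gene, with the normal groups in blue and the leukaemias in red, black bars at group medians and open triangles for LT-HSC and ST-HSC replicates 4 and 5. Ifit1, Oasl2 and Ifitm1 step down from LT-HSC, ST-HSC and MPP to GMP and MEP, all 19 leukaemias lie below all 30 normal samples for Ifit2, and Ifitm6 is high in the leukaemias and in the 4 marked libraries.

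Each group of leukaemias was then compared with the normal cell from which it was raised, which asks how transformation by MLL-AF9 and the steps that went with it left these genes. In the leukaemias raised from ST-HSC, MPP and CMP the effector genes were low. Ifit1 measured 0.26, 0.19 and 0.72 FPKM in STHSC:MA9, 0 to 1.41 (median 0.175) in MPP:MA9 and 0.29, 0.09, 0.03 and 0 in CMP:MA9, and each of these ranges lay wholly below that of the normal cell. Mean FPKM was 10.4, 13.6 and 14.1 times higher in ST-HSC, MPP and CMP than in their leukaemias. The change was -1.80 (SE 0.31, adjusted p = 7.59e-06), -2.06 (SE 0.24, adjusted p = 3.27e-09) and -1.15 (SE 0.28, adjusted p = 0.000658) on the log2(FPKM + 1) scale, all called. GMP:MA9 ran from 0.19 to 2.39 FPKM (median 0.34) and differed from GMP by -0.08 (SE 0.25, adjusted p = 0.807). Of its 6 values, 4 lay below all of GMP and 1 above. Since GMP averaged 0.642 FPKM, even complete loss would have stayed under the fold threshold of 1, so no fall could be called.

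Oasl2 was likewise called lower for the ST-HSC, MPP and CMP origins and not for GMP. It measured 1.49, 1.19 and 3.00 FPKM in STHSC:MA9, 2.40 to 9.76 (median 3.25) in MPP:MA9, 1.70, 0.96, 1.38 and 0.40 in CMP:MA9 and 1.41 to 21.6 (median 2.365) in GMP:MA9. The first 3 groups did not overlap with their normal cells and the fourth did. The fall was -3.66 (SE 0.42, adjusted p = 5.2e-09) from ST-HSC, -3.04 (SE 0.33, adjusted p = 7.81e-10) from MPP and -2.69 (SE 0.39, adjusted p = 3.13e-07) from CMP, whereas the difference from GMP was -0.03 (SE 0.35, adjusted p = 0.962). Mean FPKM was 18.6, 9.05 and 11.2 times higher in the first 3 normal cells.

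Rsad2 measured 0.36, 0.23 and 0.75 FPKM in STHSC:MA9, 0.24 to 1.48 (median 0.315) in MPP:MA9, 0.24, 0.41, 0.18 and 0.77 in CMP:MA9 and 0.10 to 0.64 (median 0.39) in GMP:MA9. It was below its normal cell without overlap for the first 3 origins, while GMP and GMP:MA9 overlapped. The changes were -2.98 (SE 0.36, adjusted p = 1.42e-08) from ST-HSC, -1.94 (SE 0.29, adjusted p = 3.3e-07) from MPP, -1.32 (SE 0.33, adjusted p = 0.00091) from CMP and -0.34 (adjusted p = 0.343, not called) from GMP. Since GMP averaged 0.748 FPKM, even complete loss would have stayed under the fold threshold of 1, so no fall could be called. Mean FPKM was 2.06 times higher in GMP than in GMP:MA9. Without the 4 stem cell libraries the change from ST-HSC was -2.25, still called.

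Isg15 was the least firm of the effectors. It measured 1.90, 2.90 and 3.90 FPKM in STHSC:MA9, 1.16 to 7.28 (median 2.46) in MPP:MA9, 1.31, 0.95, 1.03 and 1.72 in CMP:MA9 and 0.90 to 4.97 (median 2.07) in GMP:MA9, and each group overlapped with its normal cell. It was called lower in STHSC:MA9 (-1.56, SE 0.49, adjusted p = 0.00785), MPP:MA9 (-1.41, SE 0.39, adjusted p = 0.00183) and CMP:MA9 (-1.06, SE 0.45, adjusted p = 0.0407), and not in GMP:MA9 (-0.10, adjusted p = 0.855). Without the 4 stem cell libraries the STHSC:MA9 change was -0.68 (adjusted p = 0.192) and the call was lost. The CMP:MA9 call was lost with any of CMP replicates 1, 2, 3 and 5 or CMP:MA9 replicates 1, 2 and 3 left out, with an adjusted p of up to 0.117, and in the fit with the replicate number as a block (adjusted p = 0.0692). It was kept without the 4 stem cell libraries (-1.06, SE 0.35, adjusted p = 0.00984).

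Ifit2 was the effector that fell in all 4 comparisons. Its FPKM was 1.69, 1.81 and 2.37 in STHSC:MA9, 0.15 to 2.36 (median 1.51) in MPP:MA9, 1.65, 1.68, 1.42 and 0.77 in CMP:MA9 and 0.59 to 2.53 (median 1.515) in GMP:MA9. The highest leukaemia value, 2.53, lay below the lowest of the 30 normal values, 2.91. The change was -1.51 (SE 0.24, adjusted p = 2.92e-06), -1.48 (SE 0.19, adjusted p = 2.75e-08), -1.38 (SE 0.22, adjusted p = 2.18e-06) and -1.23 (SE 0.20, adjusted p = 3.51e-06) from ST-HSC, MPP, CMP and GMP. Mean FPKM was 3.11 to 3.89 times higher in the normal cell. Ifit3 stayed under the filter (mean of 1 FPKM over the samples of the fit) and was not tested with the others. It measured 0.25, 0.16 and 0.70 FPKM in STHSC:MA9, 0 to 2.55 (median 0.545) in MPP:MA9, 0.51, 0.24, 0.10 and 0.06 in CMP:MA9 and 0.04 to 0.51 (median 0.27) in GMP:MA9, and all 4 groups overlapped with their normal cells.

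Among the membrane proteins, Ifitm1 also fell in all 4 comparisons. It measured 25.8, 7.92 and 8.12 FPKM in STHSC:MA9, 15.9 to 66.95 (median 34.2) in MPP:MA9, 20.3, 39.8, 11.6 and 16.5 in CMP:MA9 and 3.68 to 64.8 (median 14.3) in GMP:MA9. The first 3 groups lay wholly below ST-HSC, MPP and CMP, with means 15.0, 9.03 and 6.08 times lower, and 4 of the 6 GMP:MA9 values lay below all of GMP. The changes were -3.94 (SE 0.55, adjusted p = 2.39e-07), -3.27 (SE 0.44, adjusted p = 4.82e-08), -2.69 (SE 0.51, adjusted p = 2.47e-05) and -1.35 (SE 0.46, adjusted p = 0.0115). The last was -0.98 (adjusted p = 0.0509) without GMP:MA9 replicate 4.

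Ifitm2 and Ifitm3 stayed abundant. Ifitm2 measured 482, 382 and 327 FPKM in STHSC:MA9, 417 to 1071 (median 756) in MPP:MA9, 524, 847, 608 and 622 in CMP:MA9 and 454 to 2073 (median 469) in GMP:MA9. It was not called in any comparison. The 3 STHSC:MA9 values lay below all 5 of ST-HSC (-0.98, SE 0.31, adjusted p = 0.00795), and the size passed the fold threshold without ST-HSC replicate 2 or 3 or without STHSC:MA9 replicate 1 (-1.06, -1.07 and -1.13), but was -0.78 (adjusted p = 0.0597) without the 4 stem cell libraries. The other 3 differences were 0.05, -0.12 and 0.24, with adjusted p from 0.439 to 0.871. Ifitm3 measured 616, 187 and 303 FPKM in STHSC:MA9, 482 to 797 (median 619) in MPP:MA9, 586, 529.9, 385 and 289 in CMP:MA9 and 244 to 1293 (median 524) in GMP:MA9. It was called lower in STHSC:MA9 (-1.15, SE 0.35, adjusted p = 0.00593) and higher in GMP:MA9 (1.05, SE 0.29, adjusted p = 0.00208), with -0.14 and 0.21 in MPP:MA9 and CMP:MA9, not called. Neither call held throughout: the first was -0.87 (adjusted p = 0.0568) without the 4 stem cell libraries, -0.98 without ST-HSC replicate 4 and -0.75 without STHSC:MA9 replicate 2, and the second was 1.00, 0.79 and 0.93, under the fold threshold, without GMP replicate 2, GMP:MA9 replicate 2 and GMP:MA9 replicate 3.

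Ifitm6 was the gene that rose in every comparison. It measured 652, 197 and 324 FPKM in STHSC:MA9, 341 to 1918 (median 509.7) in MPP:MA9, 507, 579, 416 and 337 in CMP:MA9 and 258 to 429 (median 331) in GMP:MA9. MPP, CMP and GMP lay wholly below their leukaemias, whose means were 149.8, 97.1 and 8.49 times higher. The rises were 7.08 (SE 0.82, adjusted p = 2.33e-09) for MPP:MA9, 6.33 (SE 0.95, adjusted p = 6.16e-07) for CMP:MA9 and 3.17 (SE 0.86, adjusted p = 0.0019) for GMP:MA9. For STHSC:MA9 the rise of 3.24 (SE 1.03, adjusted p = 0.0094) was set against ST-HSC values that ran from 1.21 to 1202 FPKM, and it was 2.78 (adjusted p = 0.06) without STHSC:MA9 replicate 1. Without the 4 stem cell libraries the rise was 5.82 (SE 0.62, adjusted p = 1.37e-09).

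**Figure D2:**
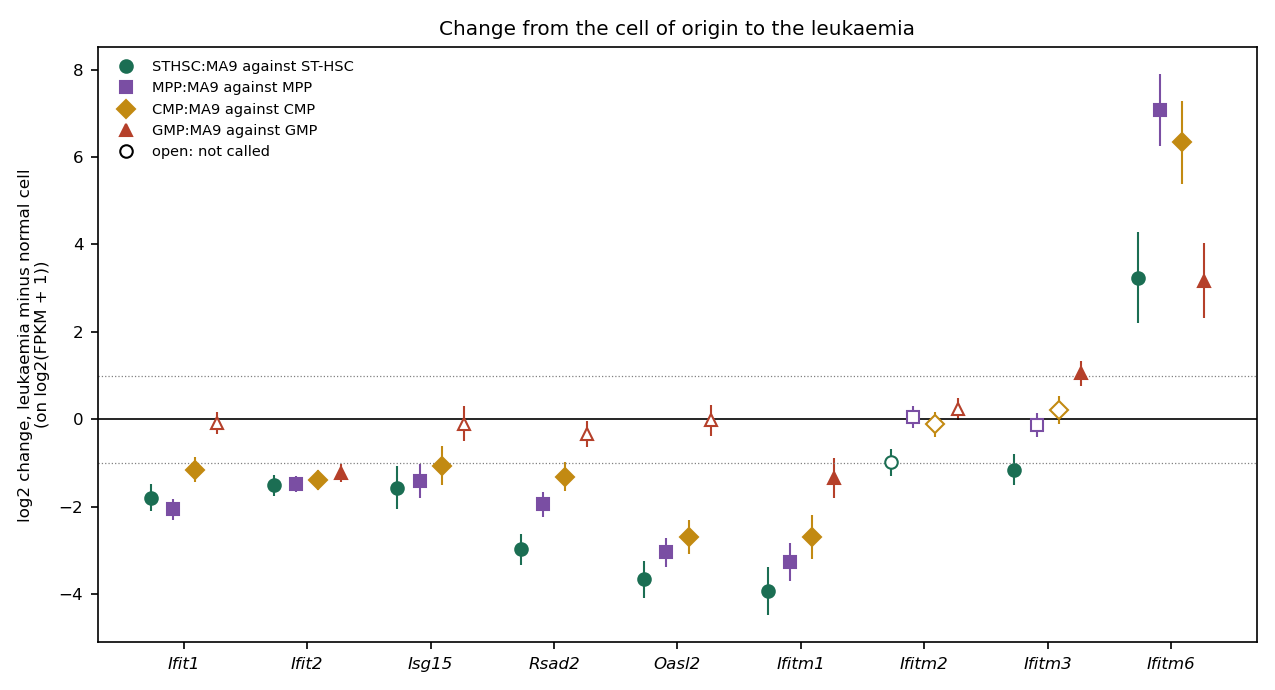
Change from normal cell to leukaemia in log2(FPKM + 1) for the 9 genes tested, with a marker per comparison, bars of 1 SE, filled markers where limma called the gene and dotted lines at the fold threshold of 1. For Ifit1, Isg15, Rsad2 and Oasl2 the GMP:MA9 markers lie between -0.34 and -0.03 and the other 3 lie below -1, Ifit2 and Ifitm1 are below -1 in all 4, and Ifitm6 is above 3 in all 4.

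Of the 9 genes that passed the filter, 7 were called lower and 1 higher in STHSC:MA9, where 11.9% and 12.3% of 12600 genes were. In MPP:MA9 it was 6 lower and 1 higher (13.6% and 13.5% of all genes), in CMP:MA9 6 and 1 (14.8% and 13%), and in GMP:MA9 2 and 2 (8.87% and 13.5%). Ifit1 and Rsad2 could not have been called lower in GMP:MA9, since both were too low in GMP for a fall past the fold threshold. The median change of the 9 was -1.56, -1.48, -1.15 and -0.08 in this order, beside -0.04, -0.09, -0.16 and 0.00 over all genes tested. When the 4 stem cell libraries were left out, 6 of the 9 were called in STHSC:MA9, with 12.5% of all genes lower and 13.4% higher, and the lost calls were those of Isg15 and Ifitm3. Ifit1 (-1.43), Ifit2 (-1.52), Rsad2, Oasl2 (-3.47) and Ifitm1 (-3.57) were still called lower.

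Whether the change depended on the origin was tested by limma's F test over the differences between the 4 changes. It passed (adjusted p below 0.05) for 6 of the 9 genes, against 38% of all genes tested: Oasl2 (adjusted p = 3.24e-06), Ifit1 (0.00017), Rsad2 (0.000226), Ifitm3 (0.00178), Ifitm6 (0.0155) and Ifitm1 (0.0168). Ifit2 (0.815), Isg15 (0.142) and Ifitm2 (0.0641) did not pass. These 6 adjusted p-values ran from 9.81e-06 to 0.0389 without the 4 stem cell libraries. Without ST-HSC replicate 1 Isg15 passed (0.0327), and Ifitm2 passed without MPP:MA9 replicate 4 (0.0356) or GMP:MA9 replicate 1 (0.0479), 2 (0.0136), 4 (0.0445) or 5 (0.0460).

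The differences that passed lay between the GMP origin and the others. Relative to the change from GMP to GMP:MA9, Oasl2 moved by -3.63 (adjusted p = 4.08e-06) in the ST-HSC comparison, -3.02 (9.67e-06) in the MPP comparison and -2.66 (0.0003) in the CMP comparison. The corresponding differences of Ifit1 were -1.72 (adjusted p = 0.00109), -1.98 (4.2e-05) and -1.07 (0.041). Rsad2 differed from the GMP origin by -2.64 (adjusted p = 4.58e-05) and -1.60 (0.00332) for ST-HSC and MPP, Ifitm1 by -2.59 (0.00525) and -1.92 (0.0201), and Ifitm3 by -2.20 (0.000277) and -1.19 (0.0221), while none of these 3 passed for CMP (0.122 to 0.170). Ifitm6 differed between MPP and GMP (3.91, adjusted p = 0.0119) and passed neither for CMP (3.16, 0.0766) nor for ST-HSC (0.07, 0.976). Without the 4 stem cell libraries its changes were 5.82 (SE 0.62) from ST-HSC, 7.08 (SE 0.44) from MPP, 6.33 (SE 0.51) from CMP and 3.17 (SE 0.46) from GMP. The pairs of origins were tested only with all libraries. With all libraries no pair among the ST-HSC, MPP and CMP comparisons passed for any of these genes, the lowest adjusted p being 0.0537 for Rsad2. The GMP samples that set the small changes of Ifit1, Oasl2 and Rsad2 are the ones in which those genes were low among normal cells, so the order of the normal levels and the order of the changes are not separate evidence. For Ifit1 and Rsad2 the GMP means of 0.642 and 0.748 FPKM also bounded how far either could fall on this scale.

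Set directly against each other, the 4 groups of leukaemias gave no called difference in these genes. Of the 7 genes that passed the filter over the 19 leukaemias (Ifit1, Ifit3 and Rsad2 did not), limma called 0 in any of the 6 pairs, where 4.82% of 12128 genes were called in at least 1. At an unadjusted p below 0.05 there were 6 differences over 5 genes, with a lowest adjusted p of 0.113. STHSC:MA9 differed from MPP:MA9 by -0.88 for Ifitm2 and -0.91 for Ifitm3, MPP:MA9 from CMP:MA9 by 0.75 for Isg15 and 1.26 for Oasl2, MPP:MA9 from GMP:MA9 by 0.80 for Ifitm6, and CMP:MA9 from GMP:MA9 by -1.12 for Oasl2. A p above the threshold in groups of 3 to 6 does not show equal levels.

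Single leukaemias stood out more than groups did. GMP:MA9 replicate 2 had the highest Oasl2 (21.6 FPKM), Ifit1 (2.39), Ifitm2 (2073) and Ifitm3 (1293) of the 19, with Ifitm1 at 64.8 and Isg15 at 4.97. MPP:MA9 replicate 6 had the highest Isg15 (7.28), Rsad2 (1.48) and Ifit3 (2.55), with Ifit1 at 1.41 and Oasl2 at 9.76, and MPP:MA9 replicate 2 had the highest Ifitm6 (1918) and the lowest Ifit2 (0.15). Measured as deviations from their group means in log2(FPKM + 1), Ifit1 and Oasl2 had a Pearson r of 0.94 over the 19 leukaemias and 0.82 over the 17 without GMP:MA9 replicate 2 and MPP:MA9 replicate 6. These samples share their sequencing method and their leukaemia type, and the r is a description.

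**Figure D3:**
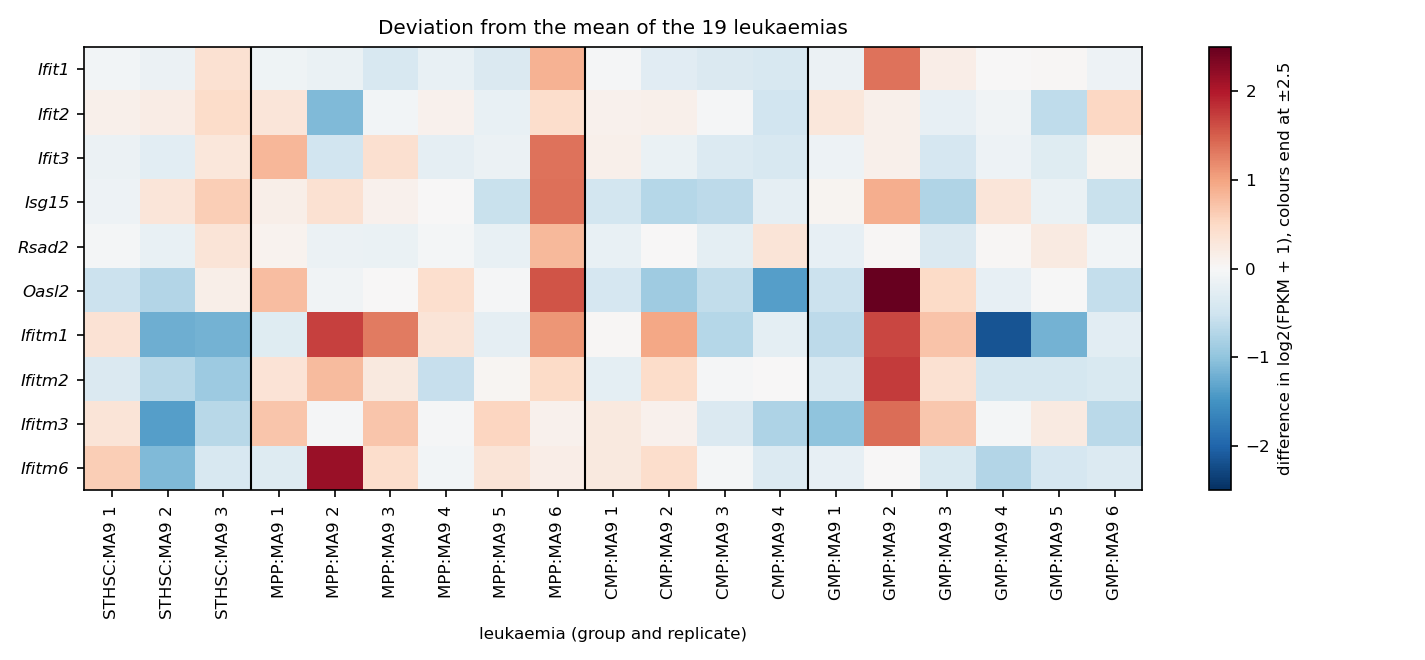
Deviation of each of the 19 leukaemias (columns, by group and replicate) from the mean of all 19 in log2(FPKM + 1), for the 10 genes (rows), red above and blue below the mean. GMP:MA9 replicate 2 is high for Ifit1, Isg15, Oasl2 and Ifitm1 to Ifitm3, MPP:MA9 replicate 6 for Ifit1, Ifit3, Isg15, Rsad2 and Oasl2, and MPP:MA9 replicate 2 for Ifitm6.

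Markers of mature cells moved with part of these results. In the 4 stem cell libraries with granulocyte marker sums of 8815 to 75151 FPKM, Ifitm6 was 241 to 1798, Rsad2 13.1 to 103.9 and Isg15 16.5 to 105.8, against 0.44 to 18.2, 3.81 to 11.2 and 2.22 to 18.45 in the other 6. Ifit1 was 5.20 to 12.35 FPKM in these 4 and 2.21 to 7.88 in the other 6. For Ifit3 the ranges were 1.58 to 5.93 and 0 to 1.37, and for Ifitm3 798 to 1486 and 543 to 984. Ifit2, Ifitm1, Ifitm2 and Oasl2 were not highest in replicates 4 and 5 of both groups. Erythroid markers were high in the same 4, and ST-HSC replicate 2, with the highest erythroid sum of the other 6 (6513), also had their highest Rsad2 (11.2). In normal GMP the granulocyte markers summed to 1712 to 11391 FPKM and in the leukaemias to 1062 to 52710. MPP:MA9 replicate 2, with 1918 FPKM of Ifitm6, had the sum of 52710, whereas MPP:MA9 replicate 4, with a sum of 1062, still held 407. Over the 19 leukaemias the deviations of Ifitm6 and of the granulocyte sum from their group means had an r of 0.39. Monocyte and macrophage markers summed to 785 to 2514 FPKM in the leukaemias and 1410 to 2335 in GMP, against at most 599.6 in the other normal samples. The part of these cell types in the changes of the 10 genes was not tested beyond leaving out the 4 libraries.

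**Figure D4:**
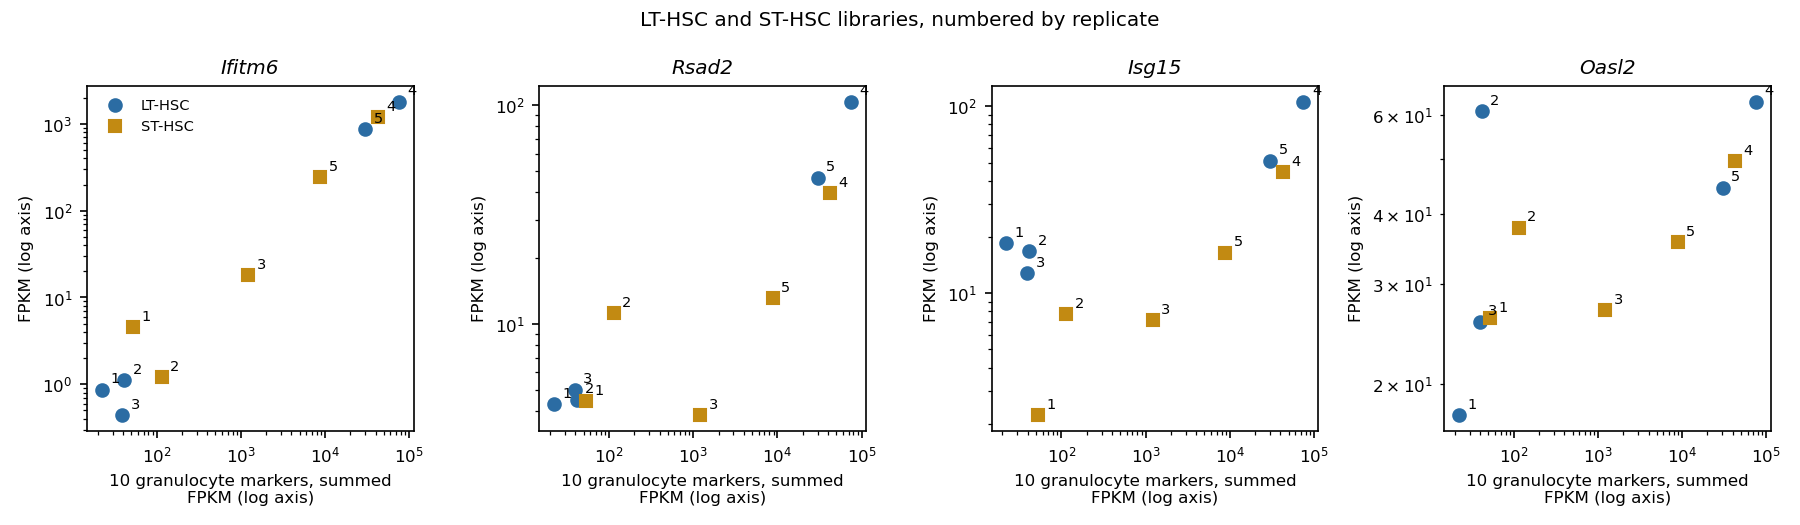
FPKM of Ifitm6, Rsad2, Isg15 and Oasl2 (log axis) against the summed FPKM of 10 granulocyte markers (log axis) in the LT-HSC (blue circles) and ST-HSC (brown squares) libraries, numbered by replicate. Ifitm6 runs from 0.44 to 1798 FPKM along the marker sum, Rsad2 and Isg15 are highest in replicates 4 and 5, and Oasl2 overlaps between the libraries with low and high sums.

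The rest of the pathway was read from lists of its receptors, kinases and factors and of other interferon-stimulated genes. None of the 9 interferon genes found in the table passed the filter. Of the 6 receptor chains, 4 were called higher in STHSC:MA9, 3 in MPP:MA9, 4 in CMP:MA9 and 3 in GMP:MA9, and 0 lower. The higher shares were 66.7%, 50%, 66.7% and 50%, beside 12.3%, 13.5%, 13% and 13.5% of all genes tested. Of all genes, 11.9%, 13.6%, 14.8% and 8.87% were called lower. Chosen after its values were seen, Ifngr2, a chain of the interferon gamma receptor, was the receptor gene called in all 4 (1.81, 2.30, 1.72 and 1.54). Of the 6 signalling genes 0, 1, 0 and 1 were called higher in this order and 0 lower. The share of 16.7% in MPP:MA9 and in GMP:MA9 was near the 13.5% of all genes. The receptor kinase Tyk2 was called higher in MPP:MA9 (1.15) and measured 0.60, 0.40 and 0.74 in the others, and the transcription factor Stat2 was called higher in GMP:MA9 (1.02) and measured 0.05, 0.75 and 0.14 in the others. Irf9, the DNA-binding partner of Stat2, ranged from -0.74 to 0.83, and the kinases Jak1 and Jak2 from -0.068 to 0.60 and from -0.40 to 0.27, none of them called.

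Of the 6 interferon regulatory factors, 2, 2, 1 and 1 were called higher for the ST-HSC, MPP, CMP and GMP origins and 0 lower. The higher shares were 33.3%, 33.3%, 16.7% and 16.7%, beside 12.3%, 13.5%, 13% and 13.5% of all genes tested. Those of the CMP and GMP origins were thus near the share of all genes. Irf5, a factor of myeloid cells that acts after Toll-like receptors, rose in all 4 (2.48, 3.31, 3.30 and 3.22), and Irf8, a factor of the monocyte and dendritic lineages, rose in STHSC:MA9 (1.59) and MPP:MA9 (1.87) and measured 0.40 and 0.48 in the others. Irf7, the factor that amplifies interferon production, measured -0.66, -0.15, 0.08 and 0.95 and was not called, nor were Irf1 (-0.81 to 0.053), Irf2 (-0.28 to 0.84) and Irf3 (-0.18 to 0.26). Both negative regulators tested, named after their values were seen, the ISG15-removing protease Usp18 (-1.40 and -1.19) and the cytokine signalling inhibitor Socs3 (-1.05 and -1.24), were called lower in STHSC:MA9 and MPP:MA9 and Usp18 in CMP:MA9 (-1.90), while neither was called in GMP:MA9 (-0.20 and 0.35). For these 2 genes the lower shares were 100%, 100%, 50% and 0%, beside 11.9%, 13.6%, 14.8% and 8.87% of all genes tested. Without the 4 stem cell libraries Usp18 was still called in STHSC:MA9 (-1.05, adjusted p = 0.013) and Socs3 was under the filter. Of the 10 nucleic acid sensors tested, 2, 4, 4 and 3 were called higher in the same order and 1, 1, 1 and 0 lower. In STHSC:MA9 it was 3 and 0 without the 4 stem cell libraries, beside 13.4% and 12.5% of all genes. With all libraries the higher shares were 20%, 40%, 40% and 30%, beside 12.3%, 13.5%, 13% and 13.5% of all genes. The lower shares were 10%, 10%, 10% and 0%, beside 11.9%, 13.6%, 14.8% and 8.87%. The endosomal receptors Tlr9 (1.96, 3.40, 2.47 and 2.72) and Tlr7 (2.04, 3.02 and 3.11 in STHSC:MA9, CMP:MA9 and GMP:MA9, with 0.80, not called, in MPP:MA9) gave the largest rises outside the regulatory factors and the signalling list in 3 of the 4 comparisons. In MPP:MA9 Tlr9 and Ifngr2 did.

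Of 56 other interferon-stimulated genes tested, 19 were called lower and 3 higher in STHSC:MA9, 17 and 7 in MPP:MA9, 17 and 5 in CMP:MA9, and 5 and 11 in GMP:MA9. As shares, 33.9%, 30.4%, 30.4% and 8.93% were lower, beside 11.9%, 13.6%, 14.8% and 8.87% of all genes tested, and 5.36%, 12.5%, 8.93% and 19.6% were higher, beside 12.3%, 13.5%, 13% and 13.5%. The lower share in GMP:MA9 and the higher share in MPP:MA9 were thus near those of all genes. The median change was -0.52, -0.58, -0.49 and 0.05. The STHSC:MA9 counts were 18 lower and 5 higher without the 4 stem cell libraries, beside 12.5% and 13.4% of all genes. The largest falls over the lists were those of the GTPase Tgtp1 in STHSC:MA9 (-4.29) and MPP:MA9 (-4.79), the secreted galectin-binding protein Lgals3bp in STHSC:MA9 (-4.29), CMP:MA9 (-4.09) and GMP:MA9 (-2.59), the guanylate-binding protein Gbp7 in CMP:MA9 (-3.11), and Ly6a in MPP:MA9 (-4.27). Ly6a encodes Sca-1, on which ST-HSC and MPP were sorted, so it is not independent of how those cells were chosen. The family relative Ifitm7 was the second largest fall in GMP:MA9 (-2.57) and was called lower in STHSC:MA9 (-1.47), MPP:MA9 (-2.08) and CMP:MA9 (-2.09) as well, whereas Ifitm5 (-0.10 to 0.57) was not called. Named after their values were seen, Gbp2, Gbp7, Ifi47 and Lgals3bp were the interferon-stimulated genes called lower in all 4, and Samhd1, Sp100 and Tdrd7 those called higher in all 4, while 20 of the 56 were called in none. The shares of all genes called in all 4 or in none were not counted, so these numbers have no background beside them.

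Over all pathway lists together, 88 genes were tested, of which 11 were called higher and 23 lower in STHSC:MA9, 17 and 21 in MPP:MA9, 14 and 20 in CMP:MA9 and 19 and 6 in GMP:MA9. The higher shares were 12.5%, 19.3%, 15.9% and 21.6% and the lower shares 26.1%, 23.9%, 22.7% and 6.82%, to be read against the shares of all genes given above, with which the higher share in STHSC:MA9 nearly coincides. The STHSC:MA9 counts were 14 and 20 of 87 without the 4 stem cell libraries, beside 13.4% and 12.5% of all genes. Of the 86 tested among normal cells, 0 were called between LT-HSC and ST-HSC by limma (16 at an unadjusted p below 0.05), 5 (5.81%, beside 2.13% of all genes) were lower in ST-HSC than in MPP, and 15 (17.4%, beside 2.83%) were higher in MPP than in CMP. Against GMP, 12 (14.0%, beside 7.94%) were higher and 1 (1.16%, beside 3.31%) lower in CMP. Against MEP, 17 (19.8%, beside 9.49%) were higher and 1 (1.16%, beside 2.34%) lower in CMP, and 13 (15.1%, beside 11.2%) were higher and 9 (10.5%, beside 9.33%) lower in GMP. Without the 4 stem cell libraries the LT-HSC and ST-HSC counts were 1 higher and 2 lower (1.31% and 3.19% of all genes). Again without them, 10 were lower in ST-HSC than in MPP (3.29% of all genes).

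**Figure D5:**
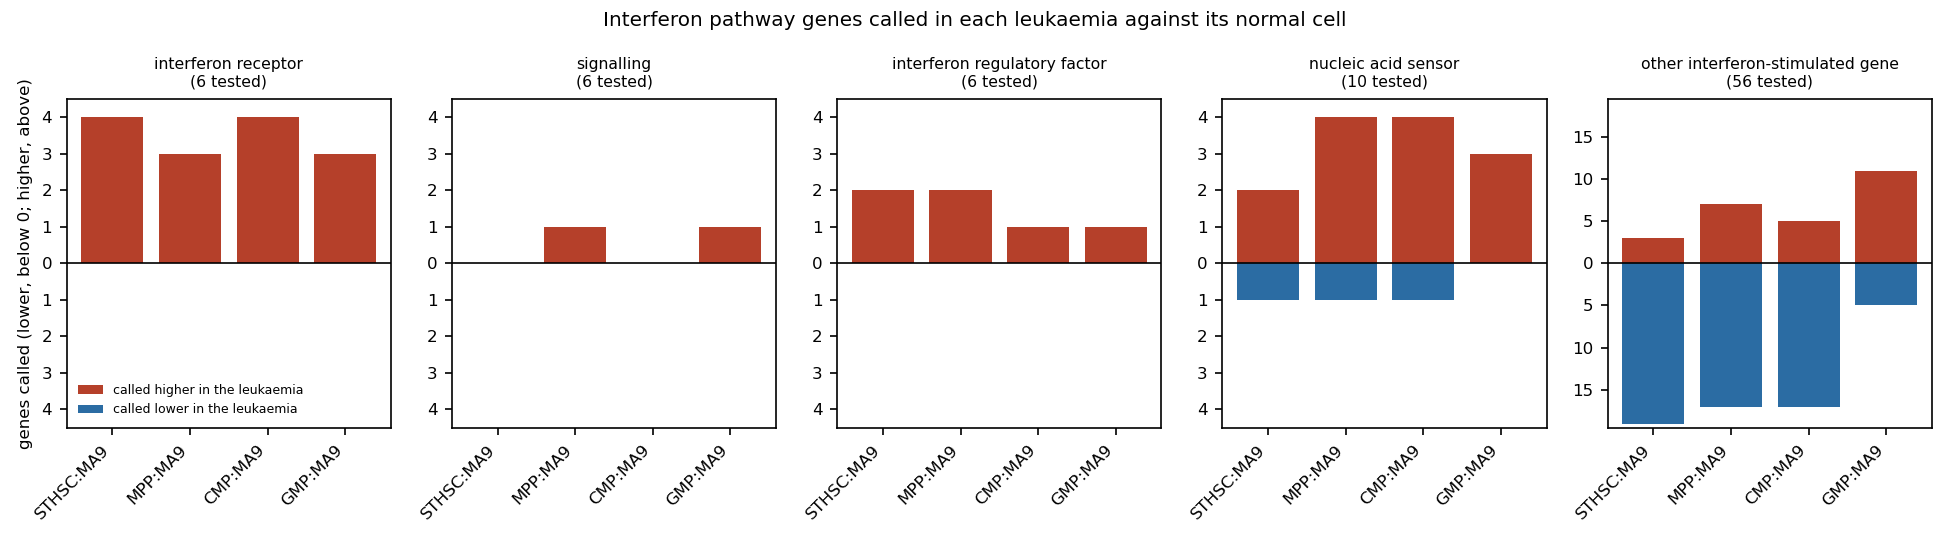
Number of genes of 5 interferon pathway lists that limma called higher (red, above 0) or lower (blue, below 0) in each leukaemia against its normal cell, with the number tested in each title. Receptors and interferon regulatory factors were called only higher, the factors in CMP:MA9 and GMP:MA9 at a share near that of all genes tested. Of 56 other interferon-stimulated genes more were called lower than higher in STHSC:MA9, MPP:MA9 and CMP:MA9, and 5 lower and 11 higher in GMP:MA9.

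To see which genes varied with the 10 from sample to sample, deviations from the group means in log2(FPKM + 1) were correlated over the 49 samples, as a description without a test, for the 9 of them that averaged 1 FPKM or more. The nearest of 12156 genes to Ifit1 were Stat2 (r 0.79), the interferon-induced protease Usp18 (0.76) and Oasl2 (0.75), and to Oasl2 they were Trim30d (0.83), Stat2 (0.80) and Ifit1 (0.75). Ifitm6 was nearest to the neutrophil genes Mmp8 (0.97), Fpr2 (0.96) and Cd177 (0.96), and without the 4 stem cell libraries these r were 0.87, 0.78 and 0.81 over 45 samples. Rsad2 was nearest to Apol11b (0.94), Ypel4 (0.94) and the red cell enzyme gene Bpgm (0.92), and over the 45 samples to the globin genes Hba-a2 (0.64), Hbb-b2 (0.64) and Hbb-b1 (0.63). Among the genes nearest to Isg15 were Ube2l6 (0.77), which encodes the enzyme that passes ISG15 to its targets, and Trim10 (0.76), none of which was among its 3 nearest without the 4 libraries.

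The remaining IFITM genes and Ifit2 had other neighbours. Ifitm3 was nearest to Ctsc (0.80), Prkx (0.79) and Adora2b (0.77), Ifitm2 to Pim1 (0.78), Zfp703 (0.78) and Hiat1 (0.74), Ifitm1 to Phf1 (0.69), Gm15931 (0.68) and Furin (0.66), and Ifit2 to Slfn9 (0.60), Pyroxd2 (0.59) and Abcc4 (0.59). Over the 49 samples without centring on the groups, levels of Ifit1 were close to those of Oasl2 (0.93), Isg15 to Rsad2 (0.90), Ifit2 to Fkbp9 (0.92) and Ifi47 (0.92), Ifitm1 to Serpina3g (0.91) and Tgtp1 (0.90), and Ifitm6 to Cd177 (0.98), in which the differences between groups count as well. With the 4 stem cell libraries left out Ifit1 and Oasl2 had an r of 0.92, whereas Rsad2 was no longer among the 3 nearest to Isg15, which were Igtp (0.85), Ifit1 (0.83) and Gimap5 (0.82), nor Isg15 among those nearest to Rsad2.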

How the data were processed

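RNA of sorted cells was amplified to cDNA with a kit that does not mark strand, and sequenced. The deposited values are FPKM per gene, which the authors made with RSEM on mm9, per the submitters' processing notes. The aligner, the RSEM version and the annotation are not given in the sources used here. Counts, on which the authors ran edgeR, were not analysed here. Of 68 sample columns 49 matched a labelled sample, and 19 did not and were not used. Symbols and positions came from Ensembl identifiers on NCBIM37 (33068 genes with both).

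The methods of the study give a minimum number of reads per sample but no depth of each sample. Estimated from FPKM steps, relative depth ran from 0.491 to 1.54, with group medians of 0.571 in LT-HSC, 0.553 in ST-HSC, 0.600 in STHSC:MA9 and 0.651 in MEP. Values near 1 FPKM are least precise there, and no counting interval is given.

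A gene entered a fit if it averaged 1 FPKM or more there, and limma 3.58.1 (trend, two-sided, R 4.3.3) was run on log2(FPKM + 1) in 3 fits: leukaemias with their normal cells, leukaemias alone, and normal cells alone. Tables and figures used Python 3.11.15, numpy 2.4.6, pandas 2.3.3 and matplotlib 3.10.9. Code was tested on simulated data. The members and lists were chosen with earlier results of these data known. All 10 members are named. Of the pathway lists, the signalling genes, the regulatory factors and the 2 largest called changes in each direction of each leukaemia comparison are named, plus the 3 nearest genes of each member, and values of some of these are not reported here. Replicate numbers were taken to pair samples where every same-numbered pair of a comparison had an r of deviations above 0.1, which held for LT-HSC and ST-HSC alone (0.142 to 0.682, 5 pairs) among all comparisons, while CMP and GMP (0.047 to 0.294, 5 pairs) and CMP:MA9 and CMP (0.046 to 0.104, 4 pairs) were positive in every pair but had pairs below it. Alternatives were another pseudocount, no filter, median-ratio scaling, fits of only the groups compared, a replicate block, no fold threshold, a GC and length correction, and fits without single libraries or the 4 stem cell libraries.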

Additional observations from a re-analysis of the deposited data

Results flagged for a closer look

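Of 90 gene and group combinations with 4 to 10 samples, 16 had a highest or lowest sample that stood apart by Dixon's criterion. Chance gives about 1 in 20 for normally distributed values, whereas the criterion was applied to FPKM without a log. The share flagged over all genes was not counted, so the 16 are not read as an excess. In MPP:MA9 replicate 6 these were Ifit1 (1.41 FPKM), Isg15 (7.28) and Rsad2 (1.48), and in GMP:MA9 replicate 2 Ifit1 (2.39), Ifitm2 (2072.51) and Oasl2 (21.57). MPP:MA9 replicate 2 stood apart for Ifitm6 (1917.87 FPKM). In the libraries with mature-cell genes they were Ifit3 in LT-HSC replicate 4 (5.93 FPKM) and Ifitm6 (1201.74) and Rsad2 (39.68) in ST-HSC replicate 4. MPP replicate 6 stood apart for Ifitm1 (594.95 FPKM) and Ifitm6 (16.15), and MEP replicate 4 for Ifitm2 (567.32) and Ifitm6 (52.01). The lowest values that stood apart were Ifit2 in GMP replicate 5 (3.93 FPKM) and Oasl2 in MPP replicate 1 (31.1).

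By limma's F test the 4 origins differed in how far the leukaemias had moved from their normal cells for Oasl2 (adjusted p = 3.24e-06), Ifit1 (0.00017), Rsad2 (0.000226), Ifitm3 (0.00178), Ifitm6 (0.0155) and Ifitm1 (0.0168).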

How the results depend on the processing

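The numbers of genes called in the 4 comparisons of leukaemias with normal cells stayed within 1.5 times the main count under all alternatives run, as did the 0 among pairs of leukaemias. Leaving out 1 replicate gave 7 to 9 genes for STHSC:MA9, 7 for MPP:MA9, 6 to 7 for CMP:MA9, 3 to 4 for GMP:MA9, 0 to 2 for LT-HSC against ST-HSC, 0 to 1 for GMP against MEP, 2 to 4 for MPP against CMP, and 6 to 7 that passed the test among origins. LT-HSC against ST-HSC gave 1 gene with a pseudocount of 0.1, 1 with median-ratio scaling, 1 with no fold threshold and 2 without the 4 stem cell libraries, and ST-HSC against MPP gave 1 without them. Over all genes those fits called 374, 250 and 1137 of 12367 and 552 of 12262, and 630 of 12262 for ST-HSC against MPP. CMP against GMP gave 4 genes with a pseudocount of 0.1, 4 when only the groups compared were fitted and 4 without the 4 libraries. Of all genes 2028 of 12367, 1463 of 11708 and 1453 of 12262 were called in these fits. GMP against MEP gave 1 with a pseudocount of 0.1, 3 with only the groups compared, 2 with no fold threshold and 3 without the 4 libraries. All genes called there numbered 3162 of 12367, 2632 of 11480, 5774 of 12367 and 2583 of 12262. CMP against MEP gave 1 with median-ratio scaling and 5 with no fold threshold, where 1344 and 3903 of 12367 genes were called. With the replicate block GMP against MEP gave 1 gene (Rsad2, -1.43, adjusted p = 0.0413), where 2577 of 12367 genes were called. Isg15 lost its call in CMP:MA9, Ifitm2 gained one in STHSC:MA9 (-1.07), and the block changed no other call. By the threshold used, only LT-HSC and ST-HSC were paired by number. The block was fitted over all 6 normal groups together and left the LT-HSC against ST-HSC count at 0. A fit that paired these 2 groups alone was not made.

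Fitted with only their own groups, Isg15 (adjusted p = 0.103) and Ifitm6 (0.188) lost their calls in STHSC:MA9, and Ifitm1 (0.0616) its call in GMP:MA9. Isg15 also lost its call in CMP:MA9 with no filter (0.0734) and with median-ratio scaling (0.0804). Signs turned only for changes near 0: Ifitm2 was 0.057 in CMP:MA9 with median-ratio scaling, and with the GC and length correction Ifitm2 was -0.037 in MPP:MA9 and Ifit1 0.077 in GMP:MA9. Without single replicates Ifitm2 ran from -0.064 to 0.21 in MPP:MA9, and in GMP:MA9 Isg15 from -0.29 to 0.042, Oasl2 from -0.49 to 0.15, Ifitm2 from -0.10 to 0.34 and Ifit1 from -0.31 to 0.012. The causes were not tested. Median-ratio scaling moved the median of all genes by 0.15 for CMP:MA9 against CMP, where the share of calls that were higher went from 46.8% to 57.1%, by 0.12 for LT-HSC against ST-HSC (33.9% to 54.8%), by 0.10 for ST-HSC against MPP (38.1% to 54.1%), by -0.19 for CMP against GMP (70.6% to 52.7%) and by -0.14 for CMP against MEP (80.2% to 69.6%). The depth of each library, known only relative to the others, limits statements on genes near 1 FPKM, above all Ifit3.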
